A study of Homo sapiens with 6 samples.

Results

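The 46 mitosis and G2/M genes are a list of genes whose products carry a cell from the end of DNA replication through division. They were taken by symbol from a list put together with earlier results of these data known, by function and with no threshold on a measured value, and all 46 were found among the 60612 gene IDs in the count files. All 46 also passed the filter on low counts that left 15395 genes for testing. RNA was measured in KO52, an acute myeloid leukaemia cell line, in 6 libraries that formed 3 groups of 2. Cells of every group carried the genotype that the labels give as CEBPA double mutant and a lentiviral pCW57.1 construct induced with doxycycline. The dnCEBP group expressed a dominant negative peptide that pairs with C/EBP family members and keeps them from DNA. The dnFOS group expressed the corresponding peptide against the AP-1 family, and the EV group an empty vector with GFP. According to the methods of the study, transduced cells were sorted for GFP before RNA was taken. Each peptide acts on a whole factor family rather than on 1 factor, and the length of induction is given for dnC/EBP in the chromatin experiment of the study but not separately for the RNA libraries. No source used here says whether the 2 libraries of a group came from separate cultures. The p-values below therefore measure only the spread between these libraries, which may be technical.

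Progress through mitosis is driven by CDK1 bound to cyclin B, which CDC25 phosphatases switch on and which the anaphase-promoting complex (APC/C) switches off by sending cyclin B for destruction. Polo-like and Aurora kinases act beside CDK1 on centrosomes, spindle and chromosomes, and kinetochore proteins couple chromosomes to spindle microtubules under the control of the spindle checkpoint. Most of these genes are kept off in resting and G1 cells by the DREAM complex and switched on late in the cell cycle by MuvB with B-MYB and FOXM1, through the CHR element and through CCAAT boxes bound by NF-Y. In RNA from a cell population, a smaller share of cells in G2 or mitosis and less of these RNAs per cell cannot be told apart.

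Total counts ran from 9862994 to 27663179 a library, and were lowest in the 2 dnFOS libraries (14583615 and 9862994). A count of 3 corresponded to between 0.108 and 0.304 CPM, the count scaled to a common library size. The signal recognition particle RNA RN7SL1 took 7.75% to 7.94% of all counts in EV and dnCEBP and 6.12% and 4.31% in dnFOS. Of 8 myeloid blast markers, 7 were counted in every library (PTPRC, CD34, KIT, CD33, MPO, LYZ and CD38), while FLT3 stood at 0 to 4 counts. The summed level of the 8 was 898 to 933 CPM of all counts in EV, 833 to 847 in dnCEBP and 772 to 778 in dnFOS. The lower sum in dnCEBP came from MPO (233 and 192 CPM in EV, 62.0 and 50.6 CPM in dnCEBP), while PTPRC was higher there (391 and 394 CPM in EV, 459 and 489 CPM in dnCEBP), and without MPO the sum was 701 and 706 CPM in EV, 771 and 797 CPM in dnCEBP and 617 and 625 CPM in dnFOS. The sum of 8 markers of other cell types was 115 to 119 CPM in EV, 104 to 109 in dnCEBP and 112.5 to 113.3 in dnFOS. Most of that sum came from PECAM1, EPCAM and KRT8, which were counted in all 6 libraries, whereas NEFM had no count, CD3E, KRT19 and COL1A1 had at most 5 counts, and HBB had 6 to 67. The part of these differences in the results below was not tested.

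The members shared promoter letters that their choice did not use. RefSeq promoters (GRCh38.p14) were on hand for 40 of the 46 members, and a window from 250 bases before to 30 bases after the transcription start was read on both strands. The CHR, searched as TTTGAA or TTCGAA, was present in 29 of the 40 windows (72.5%), against 15.7% of the 27305 genes with a promoter in the table. The CCAAT box, searched as CCAAT, was also in 29 of 40 (72.5%), against 34.8% of all genes. Both were present in 24 of 40 (60%), against 6.03% of all genes, and 22 of 40 (55%) held at least 2 CCAAT boxes, against 10.9%. The AP-1 motif TGANTCA was in 1 member's window of 40 (2.5%), that of LBR, against 7.34% of all genes. The C/EBP motif TTGCNNAA was in 3 of 40 (7.5%: CENPF, TACC3 and GAS2L3), against 10.0%. A CHR and a CCAAT box can share a base where they abut, and a match is a description of the letters and not of binding.

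The promoters of 5 of the 6 members with the largest change in dnFOS among those that passed the test are shown, since they range from the promoter letters usual for mitotic genes to none of them. UBE2C, the other of the 6, was not in the promoter table. Capitals mark CHR, CCAAT and AP-1 matches on either strand (ATTGG is the CCAAT box and TTCAAA the CHR read from the opposite strand), and positions count from the transcription start. PLK1 (chr16:23678639-23678918, plus strand) held a CHR at -29 and a CCAAT box at -73. CDC20 (chr1:43358731-43359010, plus strand) held 2 CHR matches, at -178 and -65, and 2 CCAAT boxes, at -100 and -55. CDC25C (chr5:138331848-138332127, minus strand) held 3 CCAAT boxes, at -217, -200 and -12, and KIF2C (chr1:44739587-44739866, plus strand) held none of the motifs. LBR (chr1:225428792-225429071, minus strand) held neither a CHR nor a CCAAT box and had the AP-1 motif at -51.
PLK1: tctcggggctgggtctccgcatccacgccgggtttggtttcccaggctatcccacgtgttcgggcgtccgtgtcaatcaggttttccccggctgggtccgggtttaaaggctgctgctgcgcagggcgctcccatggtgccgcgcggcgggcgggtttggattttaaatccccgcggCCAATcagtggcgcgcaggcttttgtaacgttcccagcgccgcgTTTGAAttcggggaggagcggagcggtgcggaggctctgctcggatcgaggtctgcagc
CDC20: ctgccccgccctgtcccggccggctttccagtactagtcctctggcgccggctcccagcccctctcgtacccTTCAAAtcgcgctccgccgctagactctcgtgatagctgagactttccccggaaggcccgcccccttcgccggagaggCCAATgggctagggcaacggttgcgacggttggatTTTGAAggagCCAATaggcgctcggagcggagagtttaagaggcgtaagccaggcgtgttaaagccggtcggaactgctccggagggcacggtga
CDC25C: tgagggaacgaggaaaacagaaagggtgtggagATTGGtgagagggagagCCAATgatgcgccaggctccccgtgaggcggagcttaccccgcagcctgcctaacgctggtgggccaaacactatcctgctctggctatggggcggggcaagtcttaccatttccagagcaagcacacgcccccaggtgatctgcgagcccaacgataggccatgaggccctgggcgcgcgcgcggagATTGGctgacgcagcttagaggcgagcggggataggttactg
KIF2C: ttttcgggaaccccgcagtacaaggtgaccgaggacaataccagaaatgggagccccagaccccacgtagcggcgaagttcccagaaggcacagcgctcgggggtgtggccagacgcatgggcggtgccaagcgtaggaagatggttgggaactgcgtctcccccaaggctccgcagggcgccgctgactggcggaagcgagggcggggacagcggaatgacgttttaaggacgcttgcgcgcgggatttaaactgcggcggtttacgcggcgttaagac
LBR: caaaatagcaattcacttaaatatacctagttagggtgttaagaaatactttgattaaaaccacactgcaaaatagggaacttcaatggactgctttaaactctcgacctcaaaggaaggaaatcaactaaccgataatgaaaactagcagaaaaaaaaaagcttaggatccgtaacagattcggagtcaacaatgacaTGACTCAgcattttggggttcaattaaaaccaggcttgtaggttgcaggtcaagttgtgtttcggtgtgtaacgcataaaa

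Comparison of dnFOS with EV asked how mitotic transcripts stood in cells with blocked AP-1. Of the 46 members, 14 fell and 1, LBR, rose, with 31 not passing the test (edgeR quasi-likelihood test, Benjamini-Hochberg adjusted over 15395 genes, called under 0.05). That is 30.4% of the members called lower, where 7.76% of all genes tested were called lower and 7.24% higher. The changes were small. The 14 genes that fell did so by 0.29 to 0.62 on the log2 scale, and they retained between 65.0% and 81.9% of their EV level. In all, 33 of 46 members had a log2 fold change below 0, against 49.6% of all genes, and the median over the members was -0.19, against 0.00 over all genes. Both dnFOS libraries lay below both EV libraries for 26 of the 46 members, a share of 56.5% where the background was 28.4%, and above them for 5, where the background was 28.3%. When libraries were scaled by their total counts alone, the median of all genes in this comparison moved to 0.10 and that of the members to -0.09, and the calls became 7 lower and 4 higher, with 16.8% of all genes called in either direction.

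**Figure D1:**
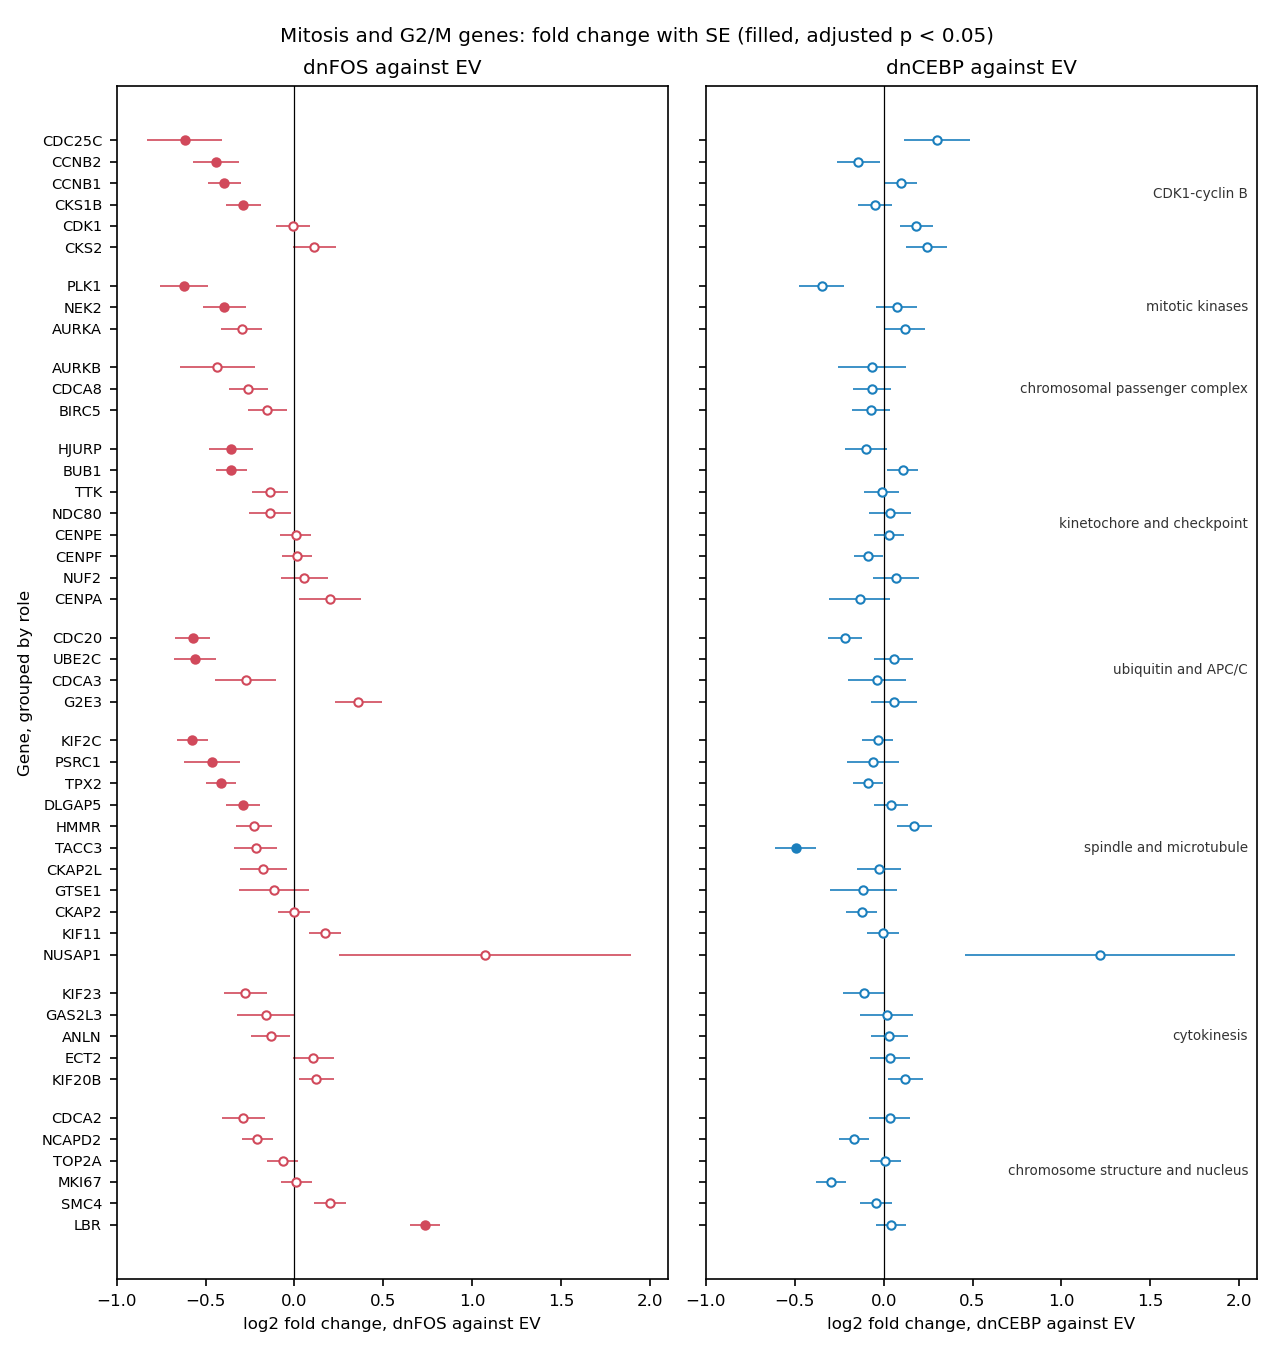
Log2 fold change (x axis) of each of the 46 mitosis and G2/M genes (y axis, grouped by role) in dnFOS (left) and dnCEBP (right) against EV; points are edgeR estimates, bars are SE, and filled points passed an adjusted p under 0.05. In dnFOS 14 genes are filled left of 0 and LBR right of it, in dnCEBP TACC3 alone is filled, and NUSAP1, with 2 to 15 counts a library, has the widest bars.

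Among the 6 genes of CDK1 and its activators, 4 fell in dnFOS (66.7%) and none rose. Beside this count and the counts by role below, 7.76% of all genes tested were called lower and 7.24% higher. The roles hold few genes each, and differences between them were not tested. CCNB1, which encodes cyclin B1, stood at 80.0 and 74.9 CPM in EV, at 80.5 and 85.2 CPM in dnCEBP and at 61.5 and 56.1 CPM in dnFOS. The dnFOS libraries lay below the other 4, and the fall against EV was 0.39 on the log2 scale (SE 0.092, adjusted p = 0.0038 by edgeR). CCNB2, the gene of cyclin B2, had 32.1 and 27.2 CPM in EV, 25.7 and 28.1 CPM in dnCEBP and 21.7 and 22.04 CPM in dnFOS, with a log2 change of -0.44 in dnFOS (SE 0.13, adjusted p = 0.020 by edgeR). Its dnCEBP libraries overlapped with EV and its dnFOS libraries did not.

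CDC25C, the phosphatase that removes inhibitory phosphates from CDK1, was a low gene with 60 to 262 counts a library. It stood at 7.85 and 7.51 CPM in EV, at 9.69 and 9.17 CPM in dnCEBP and at 4.36 and 5.80 CPM in dnFOS, so that dnCEBP lay above and dnFOS below EV without overlap. Its log2 fold change in dnFOS was -0.62 (SE 0.21, adjusted p = 0.047 by edgeR), and of its exon bases 8.78% were shared with FAM53C on the opposite strand, which had 4888 counts in all. CKS1B, whose product binds CDK complexes, fell from 60.7 and 61.0 CPM in EV to 50.9 and 48.7 CPM in dnFOS (log2 fold change -0.29, SE 0.099, adjusted p = 0.047 by edgeR) and had 55.3 and 62.6 CPM in dnCEBP.

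The kinase gene itself was not among those that fell. CDK1 had 106 and 102 CPM in EV, 107 and 131 CPM in dnCEBP and 97.8 and 110 CPM in dnFOS, with overlapping groups and a log2 change of -0.01 in dnFOS (SE 0.095, adjusted p = 0.96 by edgeR), which turned to 0.09 when libraries were scaled by total counts. CKS2 had a log2 change of 0.11 in dnFOS (adjusted p = 0.60 by edgeR).

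Of the 3 mitotic kinase genes PLK1, NEK2 and AURKA, 2 fell. PLK1, the Polo-like kinase of mitotic entry, spindle assembly and cytokinesis, stood at 33.2 and 33.4 CPM in EV, at 29.6 and 22.6 CPM in dnCEBP and at 22.6 and 20.6 CPM in dnFOS. Both peptide groups lay below EV, and the log2 fold change was -0.62 in dnFOS (SE 0.13, adjusted p = 0.0020 by edgeR) and -0.35 in dnCEBP (SE 0.13, adjusted p = 0.23 by edgeR). The difference between dnFOS and dnCEBP was -0.27 for PLK1 (SE 0.14, adjusted p = 0.19 by edgeR), so the 2 peptides were not told apart for this gene. PLK1 shared 12.5% of its exon bases with genes on the opposite strand, AC008870.3 and ERN2, that had 0 counts.

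NEK2, a kinase of centrosome separation, fell from 39.0 and 34.9 CPM in EV to 28.7 and 27.5 CPM in dnFOS, with 35.3 and 42.6 CPM in dnCEBP (log2 fold change in dnFOS -0.39, SE 0.12, adjusted p = 0.027 by edgeR). AURKA, the Aurora kinase of centrosome and spindle pole, had 43.5 and 38.2 CPM in EV, 41.3 and 47.7 CPM in dnCEBP and 32.1 and 34.6 CPM in dnFOS. Its groups did not overlap between dnFOS and EV, but the change of -0.30 missed the threshold (SE 0.12, adjusted p = 0.085 by edgeR). For the chromosomal passenger complex, which corrects faulty attachments to the spindle, none of 3 genes passed the test. AURKB, its kinase, had 8.26 and 8.06 CPM in EV, 8.44 and 7.10 CPM in dnCEBP and 5.21 and 7.06 CPM in dnFOS (log2 fold change -0.43, SE 0.21, adjusted p = 0.18 by edgeR), and CDCA8 and BIRC5 had log2 changes of -0.26 and -0.15.

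Of 8 kinetochore and checkpoint genes, 2 fell. BUB1, a checkpoint kinase, had 124 and 128 CPM in EV, 131 and 141 CPM in dnCEBP and 105 and 91.4 CPM in dnFOS, a log2 change of -0.35 against EV (SE 0.089, adjusted p = 0.0067 by edgeR). HJURP, the chaperone that deposits CENP-A at centromeres, stood at 33.4 and 35.3 CPM in EV, 33.8 and 30.1 CPM in dnCEBP and 28.8 and 24.5 CPM in dnFOS (log2 fold change -0.36, SE 0.12, adjusted p = 0.046 by edgeR). The other 6 (TTK, NDC80, CENPE, CENPF, NUF2 and CENPA) had log2 fold changes between -0.14 and 0.20. Of the genes of the ubiquitin system, CDC20, which activates the APC/C, stood at 78.9 and 72.3 CPM in EV, at 67.1 and 62.6 CPM in dnCEBP and at 55.2 and 46.02 CPM in dnFOS. All 3 groups were separate in CDC20, with dnCEBP between the others, and the log2 fold change was -0.57 in dnFOS (SE 0.10, adjusted p = 0.00020 by edgeR) and -0.22 in dnCEBP (SE 0.096, adjusted p = 0.35 by edgeR).

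UBE2C (chr20:45812576-45816957 of GRCh38 in GENCODE 29, plus strand), the ubiquitin-conjugating enzyme of the APC/C, stood at 46.9 and 40.4 CPM in EV, at 45.3 and 45.4 CPM in dnCEBP and at 27.2 and 32.5 CPM in dnFOS. The dnFOS libraries were below the other 4, with a log2 change of -0.56 (SE 0.12, adjusted p = 0.0017 by edgeR). CDCA3 and G2E3 did not pass the test, and G2E3 had 38.9 and 40.0 CPM in EV and 41.5 and 60.5 CPM in dnFOS (log2 fold change 0.36, adjusted p = 0.065 by edgeR).

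Of 11 spindle and microtubule genes, 4 fell in dnFOS. KIF2C, a kinesin that takes microtubules apart at centromeres, had the smallest adjusted p of the genes that fell. It stood at 135 and 123 CPM in EV, at 121 and 130 CPM in dnCEBP and at 89.6 and 83.3 CPM in dnFOS, a log2 change of -0.57 (SE 0.088, adjusted p = 4.7e-05 by edgeR). TPX2, which activates Aurora A on the spindle, had 128 and 117 CPM in EV, 112 and 119 CPM in dnCEBP and 93.4 and 90.8 CPM in dnFOS (log2 fold change -0.41, SE 0.086, adjusted p = 0.0015 by edgeR). DLGAP5, a spindle assembly factor, and PSRC1, a microtubule-binding protein, fell by 0.29 and 0.47 on the log2 scale. DLGAP5 had 69.2 and 66.6 CPM in EV, 64.4 and 75.3 CPM in dnCEBP and 57.4 and 53.5 CPM in dnFOS (adjusted p = 0.041 by edgeR), and PSRC1 had 18.2 and 18.6 CPM in EV, 17.6 and 17.7 CPM in dnCEBP and 15.4 and 10.9 CPM in dnFOS (adjusted p = 0.043 by edgeR). NUSAP1 was counted 8 and 4 times in the EV libraries, 14 and 15 times in the dnCEBP libraries and 13 and 2 times in the dnFOS libraries, close to the floor of 3, and 62.2% of its exon bases were shared with a read-through gene on the same strand, so its level and its fitted fold change, plotted with the others, are uncertain.

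None of the 5 cytokinesis genes (KIF23, ANLN, ECT2, KIF20B and GAS2L3) passed the test, with log2 fold changes from -0.28 to 0.12. Among 6 genes of chromosome structure and the nucleus, 1 passed. LBR, the lamin B receptor of the inner nuclear membrane, stood at 96.8 and 92.9 CPM in EV, at 97.3 and 98.0 CPM in dnCEBP and at 152 and 164 CPM in dnFOS. Both dnFOS libraries were above the other 4, at 166% of the EV level (log2 fold change 0.73, SE 0.085, adjusted p = 4.8e-07 by edgeR), which was the smallest adjusted p of the 46. TOP2A, the topoisomerase that untangles sister chromatids, was the member with the highest level per kb of exon in EV (68.6 CPM per kb, against 47.6 for CKS2 and 37.1 for CDC20). It had 444 and 439 CPM in EV and 424 and 419 CPM in dnFOS (log2 fold change -0.07, SE 0.086, adjusted p = 0.67 by edgeR), a change that turned to 0.03 with libraries scaled by total counts. MKI67, the proliferation antigen Ki-67, had 102 and 107 CPM in EV and 102 and 109 CPM in dnFOS (log2 fold change 0.01, SE 0.087, adjusted p = 0.96 by edgeR).

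**Figure D2:**
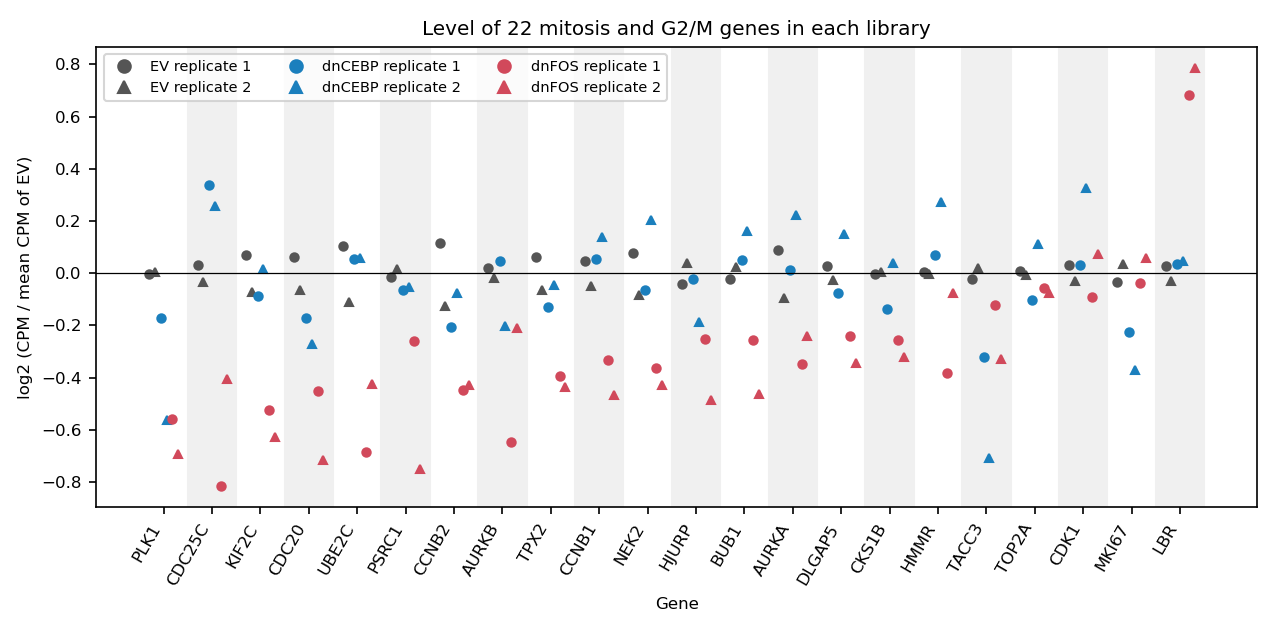
Level of 22 mitosis and G2/M genes in each of the 6 libraries, as log2 of CPM over the mean CPM of EV (y axis), with genes ordered by fold change in dnFOS (x axis); circles are replicate 1 and triangles replicate 2. For CCNB1, UBE2C, KIF2C and TPX2 the 2 dnFOS points lie below the other 4, for LBR above them, and for CDK1, TOP2A and MKI67 the dnFOS points lie close to 0.

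The count of called members depended on single libraries. Without EV replicate 1 the count fell from 15 to 6, without dnFOS replicate 2 to 7 and without EV replicate 2 to 10, and it stayed at 15 without dnFOS replicate 1, 12 of them shared. The share of all genes called also fell, to 6.88% and 6.31% without EV replicate 1 and dnFOS replicate 2. Called in all 6 fits that left out 1 library were 5 members, TPX2, KIF2C, CDC20, LBR and PLK1. CKS1B and CDC25C were called in 2 of the 6, CCNB2, HJURP, DLGAP5 and PSRC1 in 3, CCNB1 and NEK2 in 4, and UBE2C and BUB1 in 5. UBE2C missed the threshold without EV replicate 1 (adjusted p = 0.055 by edgeR), BUB1 without dnFOS replicate 2 (adjusted p = 0.12 by edgeR), and CCNB1 and NEK2 without either of these 2 libraries (adjusted p from 0.060 to 0.24 by edgeR). The calls of CCNB2, HJURP, DLGAP5, PSRC1, CKS1B and CDC25C were lost without either of these 2 as well (adjusted p from 0.056 to 0.46 by edgeR). Those of HJURP, DLGAP5, PSRC1, CKS1B and CDC25C were also lost without EV replicate 2, and those of CCNB2, CKS1B and CDC25C without dnFOS replicate 1. None of the 46 was called in a test against a 1.5-fold change. With DESeq2 or limma-voom 10 of the 15 were called, 9 lower and LBR higher, and the share of all genes called was 11.9% and 12.4%, against 15% by edgeR.

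GC content moved with the fold change in dnFOS over all genes. Over all genes tested the median log2 change ran from 0.40 for those under 35% GC to -0.24 for those at 60% GC or more. The members had a median GC content of 42.6%, below the 47.7% of all genes, and the 14 that fell had one of 47.2%. In each of the 6 bins of GC content that held members, their median lay below that of all genes. It was 0.12 against 0.40 under 35% (3 members), 0.01 against 0.21 at 35% to 40% (11 members), -0.23 against 0.10 at 40% to 45% (14 members), -0.33 against 0.01 at 45% to 50% (6 members), -0.26 against -0.08 at 50% to 55% (7 members) and -0.47 against -0.16 at 55% to 60% (5 members).

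With the trend over GC content and length (the merged exons of a gene) removed from the counts, 26 of 46 members were called, 25 lower and LBR higher. Over all genes, 7.90% were called lower and 5.02% higher. The median over the members became -0.29. Of the 15 called before, 14 were shared and PSRC1 was not (adjusted p = 0.13 by edgeR). The 12 gained included 4 of the 5 cytokinesis genes, with ANLN at -0.30 (adjusted p = 0.033 by edgeR) and GAS2L3 at -0.51 (adjusted p = 0.014 by edgeR). AURKA (-0.31, adjusted p = 0.048 by edgeR), CDK1 (-0.26, adjusted p = 0.019 by edgeR), TOP2A (-0.25, adjusted p = 0.026 by edgeR) and HMMR (-0.50, adjusted p = 4.9e-05 by edgeR) were also called lower on this scale. LBR kept a log2 change of 0.51 (adjusted p = 7.0e-06 by edgeR), and G2E3 went to -0.10 (adjusted p = 0.56 by edgeR).

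**Figure D3:**
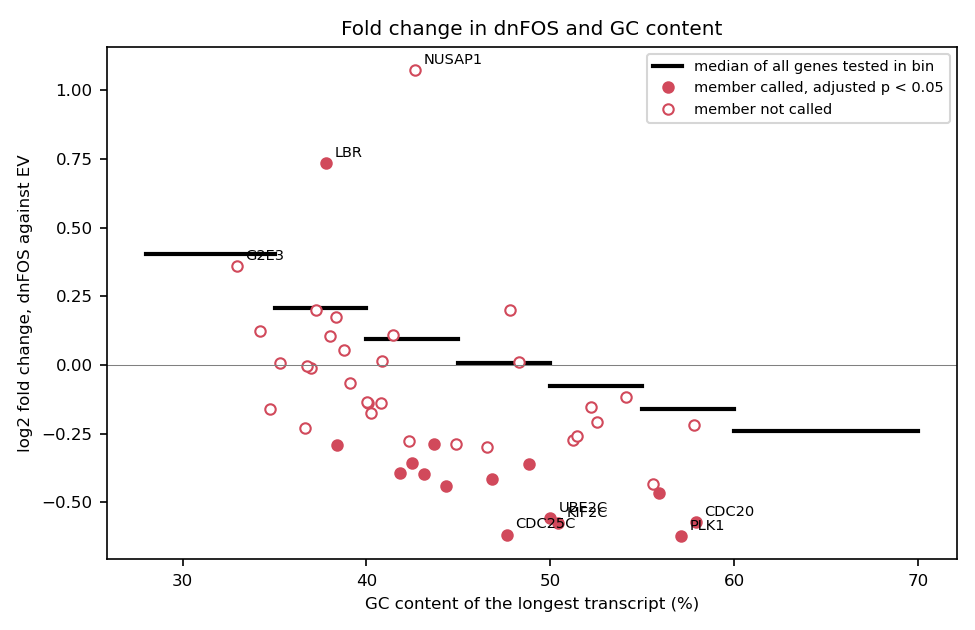
Log2 fold change in dnFOS against EV (y axis) of the 46 members by the GC content of the longest transcript in percent (x axis); filled points passed an adjusted p under 0.05 and black lines are the median of all genes tested in each bin of GC content. The lines run from 0.40 at low to -0.24 at high GC content, and most members lie below the line of their bin, with LBR and NUSAP1 well above it.

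The comparison of dnCEBP with EV asked the same of cells with blocked C/EBP factors. Of the 46 members 1 fell and none rose, a share of 2.17% where 1.07% of all genes were called. The median log2 fold change was -0.01, against 0.00 over all genes, and 24 of 46 members were below 0, against 50.3% of all genes. Libraries of dnCEBP lay below both EV libraries for 9 members (19.6%) and above them for 8, where the background was 20.9% and 21.9%. At an unadjusted p under 0.05 there were 5 members (10.9%), against 11.9% of all genes. The direction depended on the scale. With the trend over GC content and length removed, 37 of 46 members were below 0, against 7715 of 15395 genes. The median over the members was then -0.06.

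TACC3, which stabilises microtubules of the spindle, was the member that fell. It stood at 49.0 and 50.5 CPM in EV, at 39.8 and 30.5 CPM in dnCEBP and at 45.6 and 39.5 CPM in dnFOS. Both dnCEBP libraries lay below EV, and 1 lay within the range of dnFOS (log2 fold change against EV -0.50, SE 0.12, adjusted p = 0.027 by edgeR). Without dnCEBP replicate 2 the change was -0.32 (adjusted p = 0.73 by edgeR), and the call was also lost without EV replicate 1 (adjusted p = 0.086 by edgeR) or EV replicate 2 (adjusted p = 0.17 by edgeR). MKI67 had 89.5 and 80.9 CPM in dnCEBP, below both EV libraries, with a change of -0.30 that missed the threshold (SE 0.086, adjusted p = 0.094 by edgeR). It passed, as 1 of 2 members called, once the trend over GC content and length was removed (-0.28, adjusted p = 0.043 by edgeR), where 1.75% of all genes were called, 0.728% lower and 1.02% higher. For cyclin B1, Aurora A and UBE2C the log2 fold changes in dnCEBP were 0.10, 0.12 and 0.06.

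Set directly against each other, the peptides differed for 13 of 46 members, 11 lower and 2 higher in dnFOS than in dnCEBP, where 7.84% of all genes were called lower and 6.83% higher. Below 0 were 35 of 46 members, against 47.3% of all genes. These comparisons share the dnFOS libraries with those against EV. CDC25C had the largest difference, -0.91 (SE 0.21, adjusted p = 0.0028 by edgeR), its dnCEBP level lying above EV and its dnFOS level below. UBE2C differed by -0.61 (SE 0.12, adjusted p = 0.00053 by edgeR), KIF2C by -0.54 (SE 0.088, adjusted p = 6.6e-05 by edgeR) and CCNB1 by -0.49 (SE 0.092, adjusted p = 0.00039 by edgeR). NEK2, BUB1, CDC20, TPX2 and DLGAP5 were also lower in dnFOS, with differences from -0.47 to -0.32.

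AURKA, HMMR and MKI67 were called in this comparison and not in that of dnFOS with EV. AURKA differed by -0.42 (SE 0.12, adjusted p = 0.014 by edgeR). HMMR, a microtubule-associated hyaluronan receptor, stood at 67.0 and 66.6 CPM in EV, at 70.0 and 80.6 CPM in dnCEBP and at 51.2 and 63.3 CPM in dnFOS, so its groups followed one another without overlap (difference -0.40, SE 0.10, adjusted p = 0.0074 by edgeR). LBR was higher in dnFOS by 0.69 (SE 0.085, adjusted p = 8.3e-07 by edgeR) and MKI67 by 0.31 (SE 0.087, adjusted p = 0.015 by edgeR). The count of 13 fell without dnCEBP replicate 2 and without dnFOS replicate 2. Either fit kept 1 library in a group, so the fall is not read as a result about the members. Libraries scaled by total counts gave 6 lower and 7 higher (18.3% of all genes called), with the median of all genes at 0.14. With the trend over GC content and length removed, 20 members were called, 17 lower and 3 higher, where 17.3% of all genes were called, 10.3% lower and 7.05% higher. UBE2C, CCNB1, BUB1, KIF2C and LBR were called in every fit that left out 1 library, CDC25C and NEK2 in 5 of the 6, and AURKA, HMMR, MKI67, CDC20, TPX2 and DLGAP5 in 4 of the 6 (highest adjusted p 0.27 by edgeR).

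Of 115 other mitotic genes, 114 were tested, and 11 fell and 5 rose in dnFOS against EV. The share called was 14% (9.65% lower), close to the 15% of all genes (7.76% lower), so the count is not a result about the list. Their median log2 fold change was -0.01. UBE2S, which extends ubiquitin chains for the APC/C, stood at 22.2 and 18.3 CPM in EV and 12.6 and 11.4 CPM in dnFOS (log2 fold change -0.75, adjusted p = 0.0026 by edgeR). The kinetochore gene PMF1 (-0.66, adjusted p = 0.0055 by edgeR), the APC/C activator FZR1 (-0.56, adjusted p = 0.016 by edgeR), the cytokinesis kinesin KIF20A (-0.55, adjusted p = 0.00091 by edgeR) and securin, PTTG1 (-0.54, adjusted p = 0.00056 by edgeR), also fell. FZR1 did not pass once the trend over GC content and length was removed (adjusted p = 0.17 by edgeR). ARPP19, an inhibitor of the phosphatase PP2A in mitosis, rose by 0.49 (adjusted p = 0.00034 by edgeR). With the trend removed, 15 of the 114 were called lower (13.2%, against 7.90% of all genes) and 4 higher. On that scale 76 of the 114 were below 0, with a median of -0.09. None of the 114 passed the test in dnCEBP against EV by edgeR, DESeq2 or limma-voom, with 11 (9.65%) at an unadjusted p under 0.05 by edgeR, against 11.9% of all genes.

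The list of other mitotic genes held 11 regulators of mitotic transcription. In dnFOS, 2 of them were called higher (18.2%, against 7.24% of all genes) and 9 did not pass. TFDP1 rose by 0.38 (adjusted p = 0.0026 by edgeR) and RBBP4 by 0.36 (adjusted p = 0.0036 by edgeR). FOXM1 was counted 470 and 434 times in the EV libraries, 477 and 366 times in the dnCEBP libraries and 258 and 167 times in the less deep dnFOS libraries, with a log2 change of -0.26 (SE 0.14, adjusted p = 0.22 by edgeR). MYBL2, the gene of B-MYB, had one of 0.01 (SE 0.15, adjusted p = 0.97 by edgeR).

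Of 43 S phase genes tested, 7 rose in dnFOS and none fell (16.3% called higher, against 7.24% of all genes), and the median log2 fold change was 0.14. HELLS, a chromatin remodeller, stood at 39.3 and 40.8 CPM in EV, at 39.4 and 40.3 CPM in dnCEBP and at 62.3 and 67.5 CPM in dnFOS (log2 fold change 0.69, adjusted p = 2.7e-05 by edgeR). BRIP1 (0.53), RAD51AP1 (0.50), TIPIN (0.50), WDR76 (0.42) and PCNA, the replication clamp (0.36), also rose. Once the trend was removed, 4 were called higher and 1 lower (9.30% and 2.33%, against 5.02% and 7.90% of all genes), and HELLS (0.45, adjusted p = 0.00049 by edgeR) and PCNA (0.34, adjusted p = 0.029 by edgeR) were among the 4. BRIP1 (0.29, adjusted p = 0.090 by edgeR), RAD51AP1 (0.23, adjusted p = 0.26 by edgeR), TIPIN (0.39, adjusted p = 0.087 by edgeR) and WDR76 (0.28, adjusted p = 0.10 by edgeR) did not pass on that scale. As normalized, no S phase gene passed the test by edgeR, DESeq2 or limma-voom in dnCEBP against EV. There, 6 (14%) had an unadjusted p under 0.05 by edgeR, against 11.9% of all genes. With the trend removed, 1 S phase gene was called lower by edgeR in dnCEBP (2.33%, against 0.728% of all genes).

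By library, the median over the members relative to the mean of EV was -0.23 and -0.21 in the dnFOS libraries, -0.06 and 0.04 in the dnCEBP libraries and within 0.01 of 0 in the EV libraries. For the S phase genes it was 0.17 and 0.08 in dnFOS, against 0.05 and -0.05 in EV. With the trend over GC content and length removed, these groups overlapped, at 0.13 and 0.06 in dnFOS and 0.07 and -0.07 in EV. The typical difference between the 2 libraries of a group was 0.07 for the members in EV, 0.15 in dnCEBP and 0.17 in dnFOS (median absolute log2 difference). The summed level of all 46 members was 3254 and 3209 CPM in EV, 3069 and 3288 CPM in dnCEBP and 2979 and 3080 CPM in dnFOS. TOP2A, CENPF and SMC4, the members with the highest CPM in EV, did not pass the test in dnFOS against EV.

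**Figure D4:**
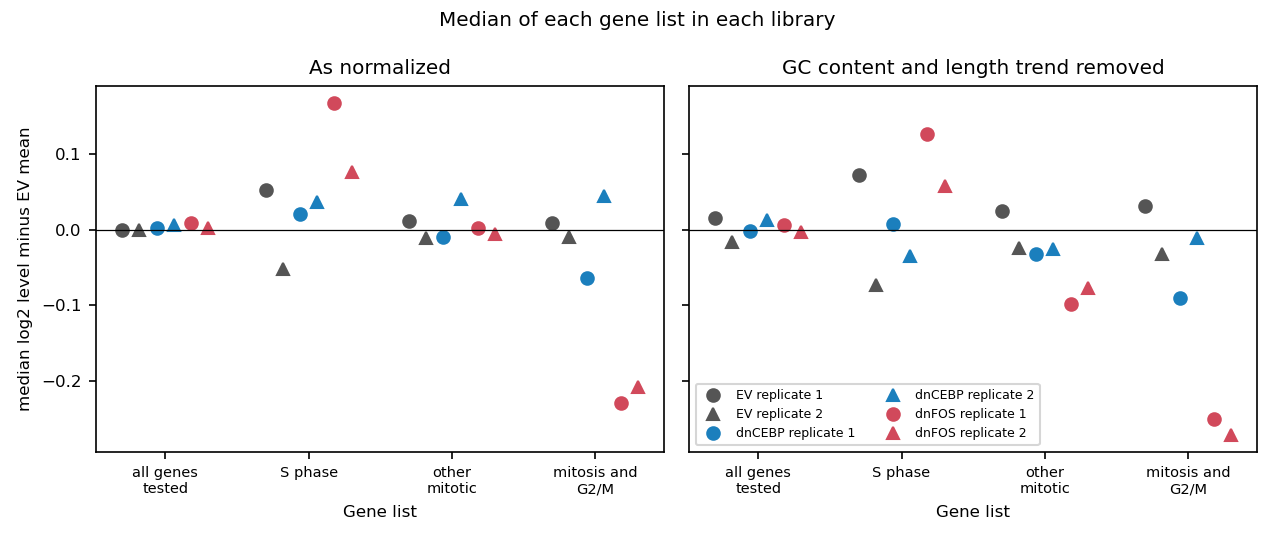
Median log2 level relative to the mean of EV (y axis) over all genes tested, 43 S phase genes, 114 other mitotic genes and the 46 mitosis and G2/M genes (x axis) in each library, as normalized (left) and once the trend over GC content and length was removed (right); circles are replicate 1 and triangles replicate 2. In both panels the 2 dnFOS points of the 46 members are the lowest of the 6 libraries. Those of the S phase genes lie above 0 in both. In the right panel, however, EV replicate 1 (0.07) lies above dnFOS replicate 2 (0.06) for the S phase genes.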

How the data were processed

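Counts of KO52 RNA were read from 6 deposited files, 1 a library. Per the labels, the authors depleted ribosomal RNA from total RNA and sequenced paired ends; the submitters' processing notes name Trimmomatic, HISAT2, featureCounts, Subread and hg38. Annotation, strand use and multi-mapping are not given in the sources used here. Gene IDs were matched to GENCODE 29 symbols (58394 of 60612). Members and lists were chosen with earlier results of these data known. The 22 members described singly were those called in any comparison and 8 central ones; of the other mitotic and S phase lists, the 6 with the largest change among those called in dnFOS were given.

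edgeR 4.0.16 (R 4.3.3) was run with TMM normalization, filterByExpr at a minimum count of 10, and 1 mean per group over all 6 libraries (3 residual degrees of freedom). Of 27870 genes with a count, 15395 were tested, with a biological coefficient of variation of 0.096. Standard errors were derived from the fold change and its F statistic. Alternatives used DESeq2 1.42.0, limma 3.58.1 and trends from mgcv 1.9.3. The main edgeR fit, DESeq2, limma-voom, another normalization (median-of-ratios size factors) and the removal of the trend were tested on simulated data. Of the marker list, 2 genes are not reported here. Replicate pairs differed by more than sampling noise (chi-square per degree of freedom 7.99 to 14.0).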

Additional observations from a re-analysis of the deposited data

How the results depend on the processing

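Of 3 counts of called members, those for dnFOS against EV (15) and dnFOS against dnCEBP (13) ranged from 10 to 19 and from 13 to 17 under other normalizations, filters, tools and the replicate block. Once the trend over GC content and length was removed they were 26 and 20, and 2 for dnCEBP against EV, where the main count was 1 and a fit of only the 2 groups compared gave 2. The test against a 1.5-fold change called 0 in each comparison, a higher bar by construction. Leaving out 1 library gave 6 to 15 in dnFOS against EV, 0 to 2 in dnCEBP against EV and 8 to 14 in dnFOS against dnCEBP. Libraries with the same replicate number deviated together only weakly over all genes tested (correlations of 0.088, 0.017 and 0.028). The numbers were therefore not taken to pair them, though shared deviation in some of the genes was not tested. A replicate block gave 19, 2 and 17 called members, and also raised the share of all genes called, to 20.6% (from 15%), 3.17% (from 1.07%) and 19.6% (from 14.7%).

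Among the 22 members described singly, signs changed only for members that the main fit did not call in that comparison. Of these, CDK1 and TOP2A were called lower in dnFOS against EV once the trend was removed (-0.26 and -0.25). In dnFOS against EV, CDK1 and TOP2A went to 0.0886 and 0.0313 with library totals alone, and MKI67 to -0.0013 without a low-count filter. Leaving out 1 library moved CDK1 between -0.093 and 0.074 and MKI67 between -0.037 and 0.059. In dnCEBP against EV, removal of the trend gave -0.0639 for TOP2A, -0.0576 for DLGAP5, -0.0446 for LBR and -0.00042 for NEK2, and library totals alone gave -0.0160 for TOP2A. There, leaving out 1 library moved UBE2C between -0.053 and 0.168, TOP2A between -0.101 and 0.111, CKS1B between -0.138 and 0.040, AURKB between -0.202 and 0.048, KIF2C between -0.108 and 0.037, DLGAP5 between -0.075 and 0.151 and NEK2 between -0.066 and 0.205. The cause was not tested. The members with the fewest counts in the dnFOS libraries were NUSAP1 (13 and 2), CDC25C (67 and 60) and AURKB (80 and 73).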
